A study of Mus musculus with 2 samples.

Results

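Saa3, Slpi, Lcn2, Hp, Wfdc17, Wfdc18 and Wfdc21 encode secreted proteins of the acute phase response or of the whey acidic protein (WAP) domain family, and their transcripts were followed here through every cell population of the infarcted mouse heart for which a genotype comparison was deposited. The 7 genes were chosen by name, with their fold changes in these same tables already known, from 15059 genes in each fibroblast subcluster table and 6477 distinct genes listed in the cluster tables. Their values are therefore given as a description, and no test is attached to them. All 7 were found in the 4 subcluster tables, and 6 of them, all but Wfdc18, in at least 1 of the 18 cluster tables.

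The data are droplet RNA sequencing (10x Chromium, which reads the 3′ end of transcripts) of single interstitial cells from the ventricles, with 1 library for each of 2 genotypes. The control library came from PostnMCM hearts, which carry an inducible Cre recombinase (MerCreMer) in the Postn locus. The other library came from Yapfl/fl;Wwtr1fl/+;PostnMCM hearts, in which both Yap1 alleles and 1 Wwtr1 allele are floxed and the second Wwtr1 allele is intact. Tamoxifen was given to both groups in chow (0.4 g/kg) from the time of infarction, both carried a Rosa26-eGFP reporter, the mice were 8 to 10 weeks old, and per the labels hearts were taken 6 days after infarction, although a later day is given in the study's text. Recombination is limited to cells that switch on Postn, and the number of mice behind each library is not given in the sources used here. Live nucleated cells were sorted, and no gate on cell type was given. Of 8 RNA values for Yap1 and Wwtr1 in the fibroblast subclusters, 3 lay below 0, so this library is named by its label, the library labelled depleted. At the protein level, the study reports by immunostaining a marked loss of nuclear Yap and Wwtr1 in GFP-positive myofibroblasts of this genotype.

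For each population the deposited tables hold the share of cells with a count of a gene in each library, and a log2 fold change, positive where the library labelled depleted was higher. All shares and fold changes below are these authors' values. The fold change compares mean corrected counts after adding 1 to each, so it is drawn towards 0 for genes of low level. The cluster tables list a gene only where the larger of its 2 shares was 25% or more and its fold change was at least 0.25 in size, whereas the subcluster tables have no such limits. The tables do not state the number of cells or the depth behind a share, and no interval is given. The smallest share above 0 shows how coarse they are. In control cells it was 0.7%, 3.3%, 2.5% and 4.3% in subclusters 0, 3, 4 and 5, and in the library labelled depleted 3.1%, 4.3%, 10% and 4.8%, so the values of subcluster 4 in particular rest on few cells. With 1 library per genotype no difference could be set against a spread between replicates.

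Acute phase proteins are secreted in response to interleukin 1, interleukin 6 and tumour necrosis factor, which act through NF-kB, C/EBP and STAT3 on the genes that encode them. The liver is their best known source, but Saa3, a serum amyloid A, is made mainly outside it, by macrophages, adipocytes and fibroblasts among others. WAP domains are small folds held by disulphide bonds, and many proteins that carry them inhibit serine proteases such as neutrophil elastase.

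On GRCm39, Saa3 lies on chromosome 7 (46361422 to 46365576), Lcn2 (32274645 to 32278264) and Slpi (164195990 to 164231015) on chromosome 2, and Hp on chromosome 8 (110301759 to 110305804), all on the minus strand. Wfdc17 (83594817 to 83597095), Wfdc18 (83599841 to 83602174) and Wfdc21 (83637766 to 83643472) lie side by side on the plus strand of chromosome 11, within 48656 bases and with no other protein-coding gene between them. Wfdc17 and Wfdc18 are related in sequence. The closest transcript of another gene to that of Wfdc18 is Wfdc17, 81.3% identical over 512 bases, and the closest to Saa3 is Saa1, 81.3% identical over 284 of 1007 bases.

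The sequences before the RefSeq start are shown for Slpi and Wfdc18, to set a member that holds a short motif shared with Saa3 and Lcn2 beside one that lacks it. They are the 250 bases upstream of that start, taken from RefSeq promoters (GRCm38.p6) and matched once each to GRCm39, and capitals mark a match to the C/EBP motif TTGCNNAA on either strand. The gene positions above are those of GENCODE, whose annotated starts can lie further upstream, and the Slpi stretch falls inside its GENCODE gene, outside the exons. The stretches of Saa3, Lcn2 and Wfdc17 overlap GENCODE exons and are not printed. Slpi (chr2:164198428-164198677, minus strand) and Wfdc18 (chr11:83599580-83599829, plus strand) read from 5′ to 3′ as follows.
Slpi: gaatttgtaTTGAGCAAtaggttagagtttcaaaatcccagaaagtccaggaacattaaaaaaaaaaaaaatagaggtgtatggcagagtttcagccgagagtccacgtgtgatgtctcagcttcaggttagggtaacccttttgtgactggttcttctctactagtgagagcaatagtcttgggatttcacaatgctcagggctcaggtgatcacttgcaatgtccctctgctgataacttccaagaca
Wfdc18: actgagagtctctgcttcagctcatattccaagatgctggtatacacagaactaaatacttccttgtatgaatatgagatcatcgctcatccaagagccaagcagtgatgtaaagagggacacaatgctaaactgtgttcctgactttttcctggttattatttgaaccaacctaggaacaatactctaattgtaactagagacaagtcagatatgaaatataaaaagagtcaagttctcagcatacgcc

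The table held 5 of the 7 members, and Hp and Wfdc21 had no entry. The C/EBP letters were found once in each of Saa3, Slpi and Lcn2, starting 99, 241 and 216 bases before the RefSeq start, and in neither Wfdc17 nor Wfdc18. Of all 32851 promoters of the table, 9.56% held them in the same window. Both strands were also searched for the NF-kB consensus, for STAT3 (TTCNNNGAA) and for TEAD (GGAATG), the factor family through which Yap and Taz act. None of the 5 members held any of these, against 7.25%, 7.02% and 12.6% of all promoters, and none of the motif matches overlapped another. A match is a description of these letters and is no evidence of binding.

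Saa3 stood far from the other genes in 3 of the 4 fibroblast subclusters, and in opposite directions. It was counted in 57.9% of control cells and 93.8% of cells of the library labelled depleted in subcluster 0, with a log2 fold change of 2.01. In subcluster 3, which the study describes as proliferating, it went from 56.7% to 100%, at 3.63, the highest of all 15059 genes. In subcluster 5, which the study proposes to be secretory myofibroblasts, it went from 60.9% to 38.1%, at -3.22, the second lowest gene. Subcluster 4, named by the study for matrifibrocyte genes, lay between these at 67.5% and 80% of cells and 0.72. In the control library the 4 shares thus lay within 56.7% to 67.5%, whereas in the library labelled depleted they spread from 38.1% to 100%. Among genes counted in 25% of cells or more in 1 library or the other, these values put Saa3 at percentiles of 99.95, 99.99, 97.5 and 0.018 in subclusters 0, 3, 4 and 5.

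**Figure D1:**
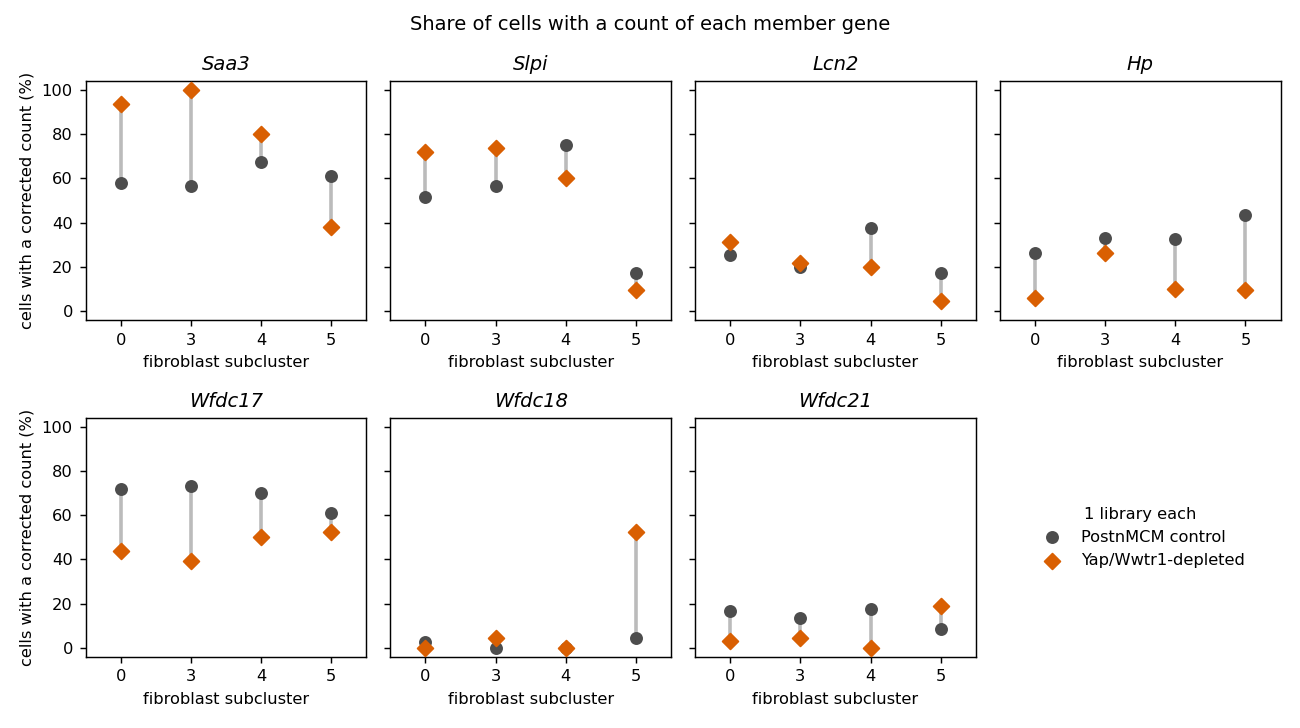
Percent of cells with a corrected count (vertical axis) of each member gene in fibroblast subclusters 0, 3, 4 and 5 (horizontal axis), for the control library (grey circles) and the library labelled depleted (orange diamonds), 1 library each and without error bars. Saa3 reaches 100% in subcluster 3 and lies at 38.1% in subcluster 5 of the library labelled depleted, and the Hp and Wfdc17 diamonds lie below the circles in all 4 subclusters.

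The shares alone understate how much Saa3 transcript was involved. Every counted cell holds at least 1 corrected count, so a library's mean count is at least its share, and the fold change then sets a floor under the higher of the 2 means. In subcluster 3 the library labelled depleted must have averaged at least 18.3 Saa3 counts per cell, and in subcluster 5 it was the control library that averaged at least 11.9. The same arithmetic gave at least 5.34 in the library labelled depleted for subcluster 0 and at least 1.75 for subcluster 4. The 4 subclusters were normalized together, so these floors are on 1 scale. Where a gene had no counted cell in 1 library the other mean follows exactly, and in all 8514 such entries over the 22 tables it was at least the deposited share.

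The difference of Saa3 between the fold changes in subclusters 3 and 5 was 6.85 on the log2 scale, and 66.1 percentage points in shares of cells. As log2 ratios of shares, which ignore the level in a counted cell, the difference was 1.495. Both directions thus appear in the shares as well.

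These subclusters differ in more than cell division. Of 17 markers of epicardium and mesothelium, the mean share of counted cells was 66.7% in the control library and 64.7% in the library labelled depleted in subcluster 3, and 22% and 10.1% in subcluster 5. Wt1, a transcription factor of the epicardium, was counted in 93.3% and 100% of cells in subcluster 3, and in 73.9% and 14.3% in subcluster 5. In subcluster 5 the share was lower for 12 of the 17 and higher for Tbx18 alone, another transcription factor of the epicardium, from 26.1% to 71.4% at 1.06. The keratin genes Krt7 and Krt18, with Bnc1 and Muc16, were at 0 in both libraries of subcluster 5. Of 10 fibroblast markers the mean share was 66.7% and 71.3% in subcluster 3 and 92.6% and 96.2% in subcluster 5, with control values first. Subclusters 0 and 4, where Saa3 was also higher, resembled subcluster 3 in this respect, with epicardial marker means of 70.0% and 73.5% in subcluster 0 and of 71.8% and 67.1% in subcluster 4. Cell cycle genes separated subcluster 3 from the rest, at 93.0% and 91.7% against 23.2% to 31.6% in the other 3 subclusters. Within subcluster 5 the epicardial marker mean was itself lower in the library labelled depleted, together with Saa3. In subcluster 3, where Saa3 was highest, 14 of 15 macrophage markers had fold changes above 0, with a median of 0.47 (1.04 over the 10 counted in 25% of cells or more), although the share was lower for 9 of them. The part of either list in the Saa3 values was not tested.

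**Figure D2:**
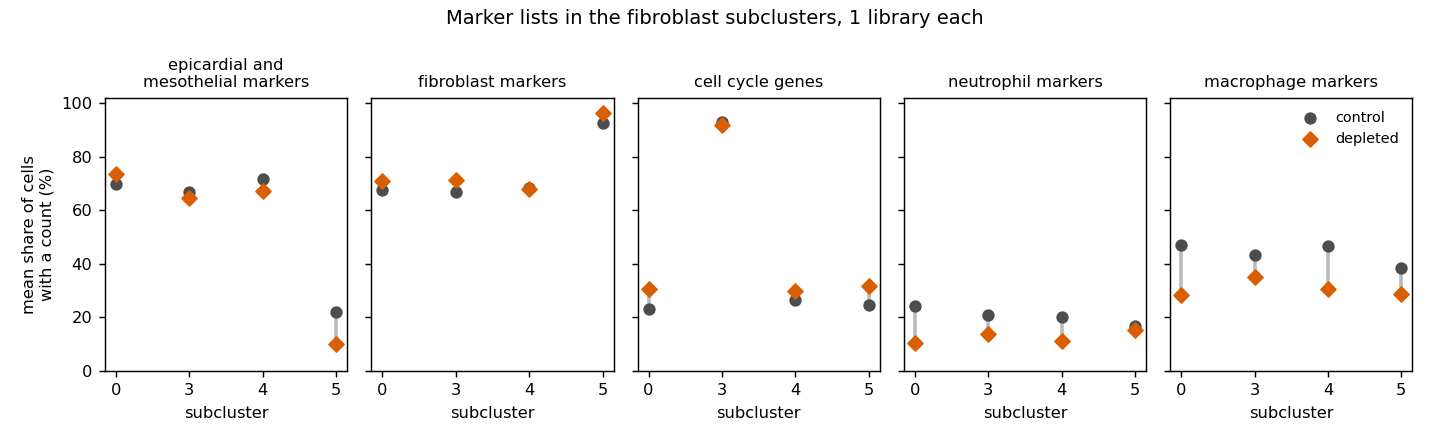
Mean share of cells with a count (vertical axis, percent) over the genes of 5 marker lists in fibroblast subclusters 0, 3, 4 and 5, for the control library (grey circles) and the library labelled depleted (orange diamonds), 1 library each. Epicardial marker means are at 22% or below in subcluster 5 and at 64.7% or above in the other 3. The means of neutrophil and macrophage markers are lower in the library labelled depleted in all 4. In subcluster 5 the neutrophil mean goes only from 16.6% to 15.4%, with 8 single markers higher and 5 lower.

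Most other acute phase genes measured also had opposite signs in these 2 subclusters, at smaller size. Of 27 further acute phase genes written as a list, 12 were in the subcluster tables. Of these 12, 9 were above 0 in subcluster 3 and below 0 in subcluster 5, and none did the reverse. The other 3 were Lbp, Itih4 and Ptx3. By share of cells, 6 of the 12 went opposite ways. Of the 7566 genes counted in 25% of cells or more in both subclusters 23.3% had that pair of signs, as did all 7 of the 12 that were counted in so many cells. The median of all 12 was 0.49 in subcluster 3 and -0.54 in subcluster 5, against a median of 0 over all genes in both. In subcluster 5, 4 of the 12 were at -1 or below, as were 1.13% of all genes counted in both libraries there. C3, the central complement component, went from 91.3% to 57.1% of cells at -2.78. Serpina3n, a protease inhibitor, went from 100% to 61.9% at -1.45, and Cfb, complement factor B, from 65.2% to 19% at -1.31. Mt2, a metallothionein, was at -1.13. In subcluster 3, where 0.295% of genes were at 1 or above, Cfb alone of the list was, from 53.3% to 82.6% of cells at 1.28. In subcluster 0, Mt2 at 1.31, Cfb at 1.23 and Mt1 at 1.20 were that high, and in subcluster 4 Cfb at 1.44 and C3 at 1.14. Medians of the list in subclusters 0 and 4 were 0.29 and 0.16.

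**Figure D3:**
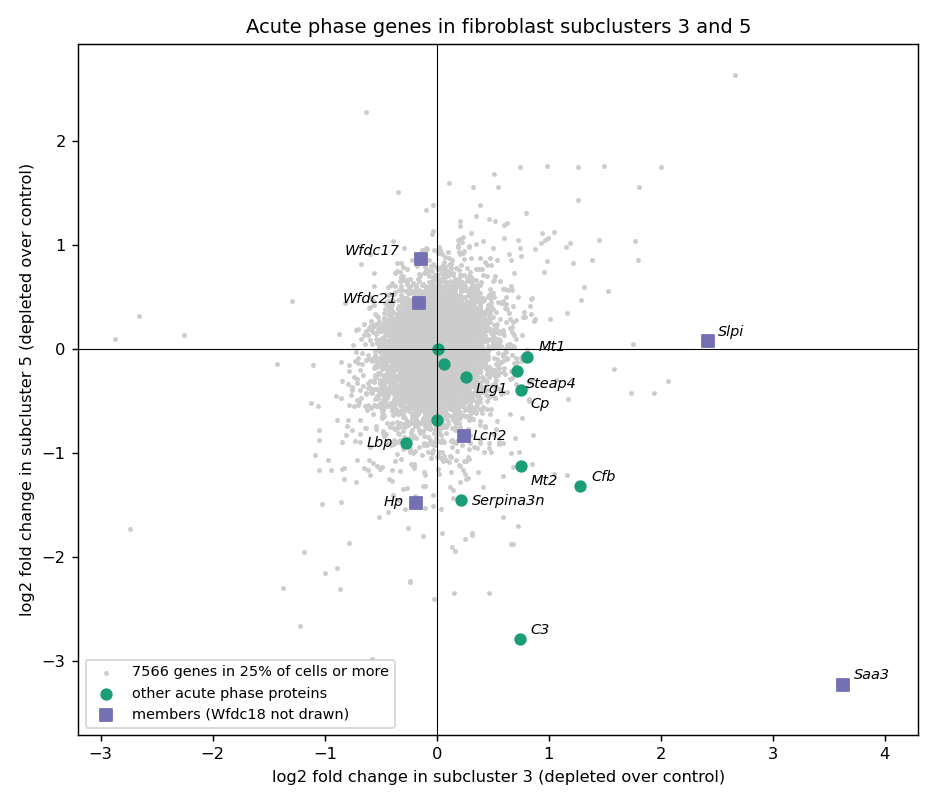
Log2 fold change of the library labelled depleted over control in subcluster 3 (horizontal axis) against that in subcluster 5 (vertical axis), for the members except Wfdc18 (purple squares), 12 other acute phase genes (green circles, 3 of them unlabelled) and 7566 genes counted in at least 25% of cells in both (grey). Saa3 lies at the lower right corner, at 3.63 and -3.22, and Cfb, C3, Mt2 and Serpina3n lie in the same quadrant.

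The genes whose fold changes over the 4 subclusters were nearest to those of Saa3, by Euclidean distance among 10530 genes counted in at least 25% of cells in any subcluster, were Cfb (3.21), Plac9a (3.30), C3 (3.32), C1s1 (3.52) and C4b (3.55). C1s1 and C4b encode components of the classical complement pathway, and Cfb and C3 are also in the acute phase list above. In subcluster 5 they lay between -2.78 for C3 and -1.21 for Plac9a, and in subcluster 3 between 0.66 for C1s1 and 1.28 for Cfb.

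**Figure D4:**
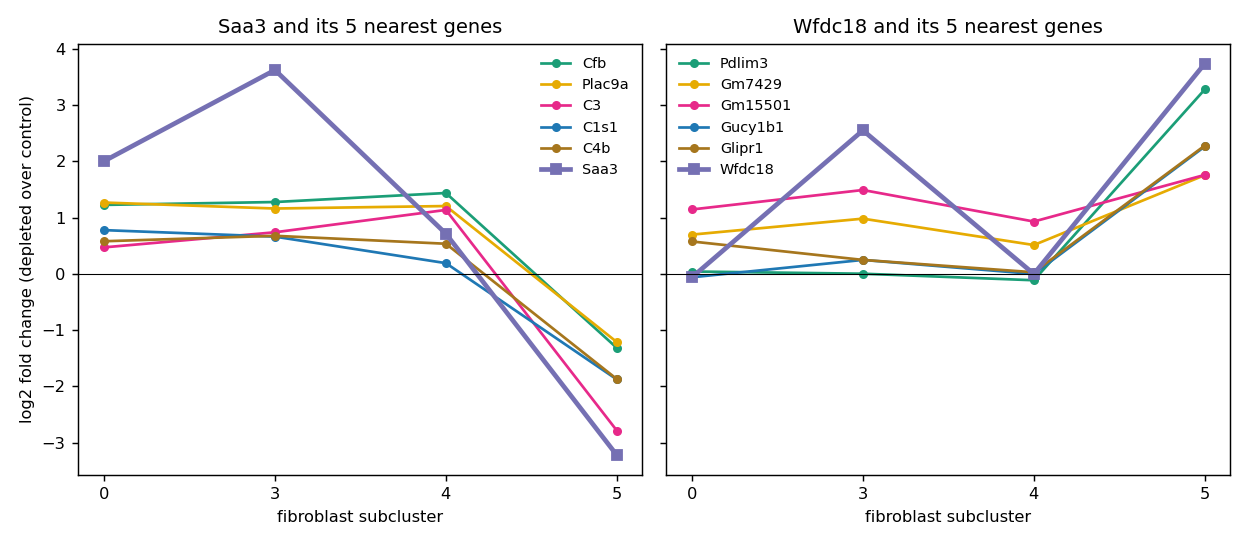
Log2 fold change (vertical axis, depleted over control) in fibroblast subclusters 0, 3, 4 and 5 of Saa3 (left) and Wfdc18 (right), drawn as thick purple lines with squares, and of the 5 genes nearest to each over these 4 values (thin lines). The neighbours of Saa3 are all above 0 in subclusters 0, 3 and 4 and below 0 in subcluster 5, and Wfdc18 has no counted cell in at least 1 library in subclusters 0, 3 and 4.

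The genes that switch on the acute phase response were read in the same tables, where 0.381%, 0.463%, 0.913% and 1.64% of genes counted in both libraries were at or past 1 in size in subclusters 0, 3, 4 and 5. Of 28 cytokines, receptors and transcription factors of this response fixed as a list, 26 were in the tables, none was at or past 1 in size in subclusters 3, 4 or 5, and the medians were 0.010 in subcluster 3 and -0.088 in subcluster 5. In subcluster 0 only Il1b, which encodes interleukin 1 beta, passed 1 in size, at -1.03 and from 34.5% to 6.2% of cells. Of 16 receptors and binding partners of the members, 14 were in the tables. Lrp1, a receptor that takes up protease complexes, was the single gene past 1 in size, at -1.18 in subcluster 5, where it was counted in 100% of cells of both libraries. With so few genes of any kind past this size, these counts say little about either list.

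The same lists were read in the immune clusters. In macrophage cluster 0, where Saa3 was at 1.36, 5 of the 6 inducing genes listed were higher, among them Lifr, a receptor for leukaemia inhibitory factor, at 0.51 and Nfkbiz, an NF-kB cofactor, at 0.44, and Cebpd was lower at -0.26. All 5 receptors and partners listed there were higher, as were 61.6% of all genes of this table. Cd36, a scavenger receptor, went from 38.6% to 71.9% of cells at 1.10, and Cd163, the haemoglobin-haptoglobin receptor, from 30% to 39.9% at 0.32. Fpr2, a formyl peptide receptor that binds serum amyloid A, went from 16.6% to 29.5% at 0.27, and Grn, whose product is protected by Slpi, was counted in 99.2% of cells of both libraries at 0.87. In macrophage cluster 13, 5 of the 6 inducing genes listed were higher, as were 528 of all its 893 listed genes. The cytokine genes Il1b and Osm were at 1.37 and 0.90, Osm from 3.2% to 40.8% of cells, and Cebpd was lower at -0.29. Cluster 11 went the other way, with 7 of its 9 listed inducing genes lower, Il1b at -0.68 and Cebpb at -0.63 among them, where 53.5% of all its listed genes were lower. In dendritic cell cluster 17 all 5 listed were lower, with Il1b at -0.96, as were 58.6% of its genes. In neutrophil cluster 1, Nfkbia, an inhibitor that NF-kB itself induces, was at 1.69 and Fpr2 at 0.52. There 5 of 6 inducing genes listed and all 3 receptors and partners were higher, as were 186 of its 317 genes. Cebpd was lower at -0.58. Saa3 was listed in none of clusters 1, 11, 13 and 17.

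Outside the subclusters Saa3 was listed in 3 cluster tables, each time higher. In the fibroblast cluster as a whole, cluster 5, it went from 39.6% to 81.3% of cells at 1.61, although subcluster 5 within it went the other way. The subclusters were not drawn equally from both libraries, by the study's account, and subclusters 1 and 2, for which no genotype comparison is used here, also belong to cluster 5. The study counts Saa3 itself among epicardial markers. It describes subcluster 1 as enriched for Saa3 and as coming mainly from Yapfl/fl;Wwtr1fl/+;PostnMCM hearts. The value of cluster 5 therefore mixes the level within subclusters with their proportions. Of 10 epicardial markers listed in cluster 5, 9 were lower, among them Upk3b at -0.93 and Upk1b at -0.91, so here Saa3 and these markers had opposite signs. S100a8 and S100a9 were at -1.89 and -2.22. The part of either in the value of cluster 5 was not tested. In macrophage clusters 0 and 3 it went from 35.9% to 57.6% at 1.36 and from 20.9% to 32.3% at 0.70. Of all genes listed in cluster 5, 43.3% were higher. The clusters were normalized apart from the subclusters, and the control share of 39.6% in cluster 5 is below that of each subcluster compared. Cfb was listed higher with Saa3 in all 3, from 10.8% to 53.6% of cells at 0.89 in cluster 0, from 24.8% to 53.9% at 0.53 in cluster 3 and from 55.7% to 77.5% at 0.99 in cluster 5. Cp, the copper carrier ceruloplasmin, was at 1.16 in cluster 5. Of the acute phase genes listed, 1 of 3 was higher in cluster 0, 2 of 3 in cluster 3 and 5 of 6 in cluster 5. Those lower were Mt1 at -0.57 and Mt2 at -0.33 in cluster 0, Mt1 at -0.37 in cluster 3 and Serpina3n at -0.51 in cluster 5. In cluster 3, 217 of all 359 listed genes were higher. No table of a B, T or natural killer cell cluster listed Saa3, so its share in cells not known to make it has no value here.

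Slpi encodes secretory leukocyte protease inhibitor, which blocks neutrophil elastase through WAP domains. In subclusters 0 and 3 it kept company with Saa3, from 51.7% to 71.9% of cells at 1.04 and from 56.7% to 73.9% at 2.42, the fourth highest gene of subcluster 3. The floor under its mean there was 7.37 counts per cell in the library labelled depleted. In subcluster 4 it went the other way, from 75% to 60% at -0.77. In subcluster 5 few cells were counted, 17.4% and 9.5%, and the fold change was 0.08. Among members counted in both libraries, Saa3 and Slpi were the 2 at or above 1 in each of subclusters 0 and 3, where 0.194% and 0.295% of genes counted in both libraries were that high.

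In the cluster tables Slpi was listed higher in 2 and lower in 2. It was at 0.46 in cluster 5, from 30.2% to 38% of cells, and at -1.06 in cluster 11, from 38.2% to 14.6%. In cluster 15, a cluster of mixed markers, it went from 84.4% to 63.6% at -0.83. In macrophage cluster 13 the fold change was 0.50 while the share went from 71.6% to 62%, so fewer cells held a higher mean.

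Hp encodes haptoglobin, which binds free haemoglobin, and Lcn2 encodes lipocalin 2, which withholds iron from bacteria by binding their siderophores. Both are stored in neutrophil granules. Hp was the only member whose fold change lay below 0 in all 4 subclusters. In subcluster 0 it went from 26.2% to 6.2% of cells, at -1.18. The values were -1.23 in subcluster 4 (32.5% to 10% of cells) and -1.47 in subcluster 5 (43.5% to 9.5%). Subcluster 3 had the smallest difference, -0.19, with 33.3% and 26.1% of cells. Values of -1 or below were found for 0.187%, 0.168%, 0.313% and 1.13% of genes counted in both libraries in subclusters 0, 3, 4 and 5, so Hp passed this size in 3 subclusters and Saa3 in subcluster 5.

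Lcn2 was at 0.34 and 0.24 in subclusters 0 and 3, from 25.5% to 31.2% and from 20% to 21.7% of cells. It was at -0.42 in subcluster 4, from 37.5% to 20%, and at -0.84 in subcluster 5, from 17.4% to 4.8%. Wfdc21, another WAP-domain gene, was counted in at most 17.5% of control cells of any subcluster. Its values were -0.60 and -0.16 in subclusters 0 and 3, with 16.6% to 3.1% and 13.3% to 4.3% of cells, and 0.44 in subcluster 5, with 8.7% to 19%. In subcluster 4 it was counted in 17.5% of control cells, with a mean of 0.28 counts per cell, and is listed at 0 in the library labelled depleted.

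Most neutrophil markers were lower in subclusters 0, 3 and 4, whereas in subcluster 5, 12 of 17 had fold changes above 0 and 1 below. The mean share over 17 neutrophil markers was 24.4%, 21%, 20.1% and 16.6% in control cells of subclusters 0, 3, 4 and 5 and 10.5%, 13.8%, 11.2% and 15.4% in the library labelled depleted. The share was lower for 14, 10, 14 and 5 of the 17 markers and higher for 3, 3, 3 and 8, in that order. Medians of their fold changes were -0.32, -0.093, -0.10 and 0.075 over all 17, and -3.03, -0.49, -1.54 and 0.13 over the 4, 6, 4 and 3 markers counted in 25% of cells or more. S100a8, the most abundant of them with S100a9, was counted in 78.3% to 91% of control fibroblasts of the 4 subclusters and in 40% to 71.4% in the library labelled depleted. Shares were far lower in cluster 5, with control values first, at 32.6% and 5.9% for S100a8 and 49.7% and 9.1% for S100a9. Cluster 5 was normalized apart from the subclusters and also holds subclusters 1 and 2, and the source of this gap was not tested. Retnlg, which encodes a resistin-like protein, went from 35.9% to 3.1% of cells in subcluster 0 and was listed at 0 in the library labelled depleted of subcluster 4, with 40% in the control. Fold changes of S100a8 were -3.96, -2.26 and -2.71 in subclusters 0, 3 and 4, and those of S100a9 were -3.90, -2.88 and -2.35. The part of neutrophil RNA in the fibroblast values of Hp, Lcn2 and Wfdc21 was not tested. In subcluster 5, where Hp had its lowest value, S100a8 had a fold change of 0.13 with 78.3% and 71.4% of cells, and S100a9 of 0.098 with 91.3% and 38.1%.

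Among the immune clusters, cluster 11 listed the most members at this size. There Lcn2 went from 34.7% to 6.2% of cells at -1.42, Hp from 42.4% to 16.7% at -1.18, Wfdc21 from 31.2% to 8.3% at -1.09 and Slpi, as above, to -1.06. All 4 listed members were thus at -1 or below, as were 2.88% of the 729 genes of this table, and 53.5% of its genes were lower. The study names cluster 11 among macrophages and monocytes. Of 18 neutrophil markers 9 were listed in it and all 9 were lower, among them S100a8 at -2.99, Retnlg at -2.75, and Cxcr2, a chemokine receptor, at -1.27. All 9 of the 15 macrophage markers listed were lower as well, including Lyz2 at -2.15 and C1qb at -1.22. The part of these markers in the 4 member values was not tested.

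In cluster 1, a neutrophil cluster, Lcn2, Hp and Wfdc21 were lower again, whereas most listed neutrophil markers were higher. Lcn2 went from 71% to 44% of cells at -0.89, Hp from 90.5% to 79.2% at -0.76 and Wfdc21 from 69.3% to 54.4% at -0.62, where 41.3% of 317 listed genes were lower. Of 6 neutrophil markers listed there, 5 were higher, among them G0s2 at 1.18 and Trem1 at 0.92, and Retnlg was lower at -0.91. Cebpd, a C/EBP transcription factor, was at -0.58 in this cluster and Cebpb at 0.87. In cluster 18, the other neutrophil cluster, Hp was at 0.31 while its share went from 100% to 94.1%, and neither Lcn2 nor Wfdc21 was listed. Of 6 neutrophil markers listed in cluster 18, 5 were lower, among them Retnlg at -0.85, and Ltf was higher at 0.72. Of its 1426 listed genes, 883 were lower.

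Hp was also listed lower in macrophage clusters 12, from 83.3% to 64.6% at -0.61, and 13, from 98.9% to 88.7% at -0.42, and higher in cluster 3, from 39.7% to 42.8% at 0.45. Lcn2 in cluster 13 went from 26.3% to 8.5% at -0.28. In cluster 3 both neutrophil markers listed were lower, S100a8 at -0.67 and S100a9 at -0.88. Of the neutrophil markers listed in cluster 13, 3 of 6 were higher and 3 lower. In cluster 12 all 3 listed were lower, S100a9 at -0.86, S100a8 at -0.52 and Trem1 at -0.29, and their part in the Hp value was not tested.

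Wfdc17 is a WAP-domain gene of activated macrophages and other myeloid cells. It was counted in nearly every neutrophil of cluster 1, 99.4% and 99.2%, with a fold change of 0.74, and in 94.7% and 97.4% of cells of cluster 3 at 0.49. In cluster 9, unnamed by the study, it went from 23.5% to 42.9% at 0.44, and in clusters 15 and 18 from 43.8% to 27.3% at -0.33 and from 45.5% to 35.3% at -0.44. In the fibroblast subclusters its share was lower in the library labelled depleted each time, from 71.7% to 43.8%, from 73.3% to 39.1%, from 70% to 50% and from 60.9% to 52.4% in subclusters 0, 3, 4 and 5. The fold changes were -0.58, -0.15, -0.39 and 0.87, so in subcluster 5 fewer cells carried a higher mean. The mean share over 15 macrophage markers was lower too, from 47.0% to 28.5%, from 43.1% to 35.1%, from 46.8% to 30.7% and from 38.5% to 28.6%. Their fold changes did not follow the shares in subclusters 3 and 5, where 14 and 13 of the 15 were above 0 with medians of 0.47 and 0.36, against medians of 0.020 and -0.14 in subclusters 0 and 4. Over the macrophage markers counted in 25% of cells or more the medians were -0.34, 1.04, -0.71 and 0.47 in subclusters 0, 3, 4 and 5. In subcluster 3, 5 of them were at 1 or above, among them Lyz2 at 1.75, from 80% to 47.8% of cells, and Ctss at 1.74. Neither Wfdc17 nor any of the 15 macrophage markers was listed in cluster 5, which was normalized apart. The part of these markers in the Wfdc17 values was not tested.

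Wfdc18 encodes an extracellular proteinase inhibitor known from the mammary gland. It was in no cluster table and nearly silent in the fibroblast subclusters of the control library, at 2.8%, 0%, 0% and 4.3% of cells in subclusters 0, 3, 4 and 5. In the library labelled depleted it was counted in 52.4% of cells of subcluster 5 at a fold change of 3.74, the highest of all genes there, with a mean of at least 12.9 counts per cell. It was the single member at or above 1 in subcluster 5, where 0.513% of genes were that high, and no member was that high in subcluster 4, against 0.600% of genes. In subcluster 3 it is listed at 0 in the control library and was counted in 4.3% of cells in the other, whose mean was nevertheless 4.87 counts per cell, or about 113 per counted cell. That share is the smallest above 0 in this library and subcluster, and no fold is given. In subclusters 0 and 4 it is listed at 0 in the library labelled depleted. Of 10 myofibroblast genes 5 were above 0 and 5 below in subcluster 5, with a median of -0.021 (0.098 over the 9 counted in 25% of cells or more). Their share was higher for 8 and lower for none, with a mean of 71.3% in control cells and 86.7% in the library labelled depleted, and the part of this list in the Wfdc18 value was not tested. Myl9 was at 1.13, Acta2 at 1.12 and Postn at 1.003 (87% to 100% of cells), and Lox at -1.41.

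The genes nearest to Wfdc18 over the 4 subclusters were Pdlim3 (distance 2.59), Gm7429 (2.69), Gm15501 (2.71), Gucy1b1 (2.73) and Glipr1 (2.80). This order is weak, since 3 of the 4 values of Wfdc18 have a library with no counted cell and the value in subcluster 3 rests on the smallest share there. Pdlim3, which encodes a PDZ and LIM protein of the actin cytoskeleton, was at 3.28 in subcluster 5, and Gucy1b1, a subunit of the nitric oxide receptor guanylyl cyclase, was at 2.27. Of 19 other WAP family genes 3 were in the tables. Wfdc1 went from 30.4% to 4.8% of cells in subcluster 5 at -0.62, and was at 0.15, -0.31 and 0.36 in subclusters 0, 3 and 4. Wfikkn2 went from 7.5% to 30% of cells in subcluster 4 at 0.24.

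Over the 4 subclusters 24 of the 28 member values had counted cells in both libraries, and 5 of these were at 1 or above and 4 at -1 or below. Of all genes so counted, 0.194% to 0.600% were at 1 or above and 0.168% to 1.13% at -1 or below, depending on the subcluster. The share of cells took the direction of the fold change in 22 of the 24, the exceptions being Slpi and Wfdc17 in subcluster 5. Over the 18 cluster tables the members were listed 23 times, 10 higher and 13 lower, where 52.3% of all 15431 listings were lower. The share took the direction of the fold change in 20 of the 23. The listings came from 10 clusters, and no member was listed in the other 8, which include the B, T, natural killer and dendritic cell clusters.

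**Figure D5:**
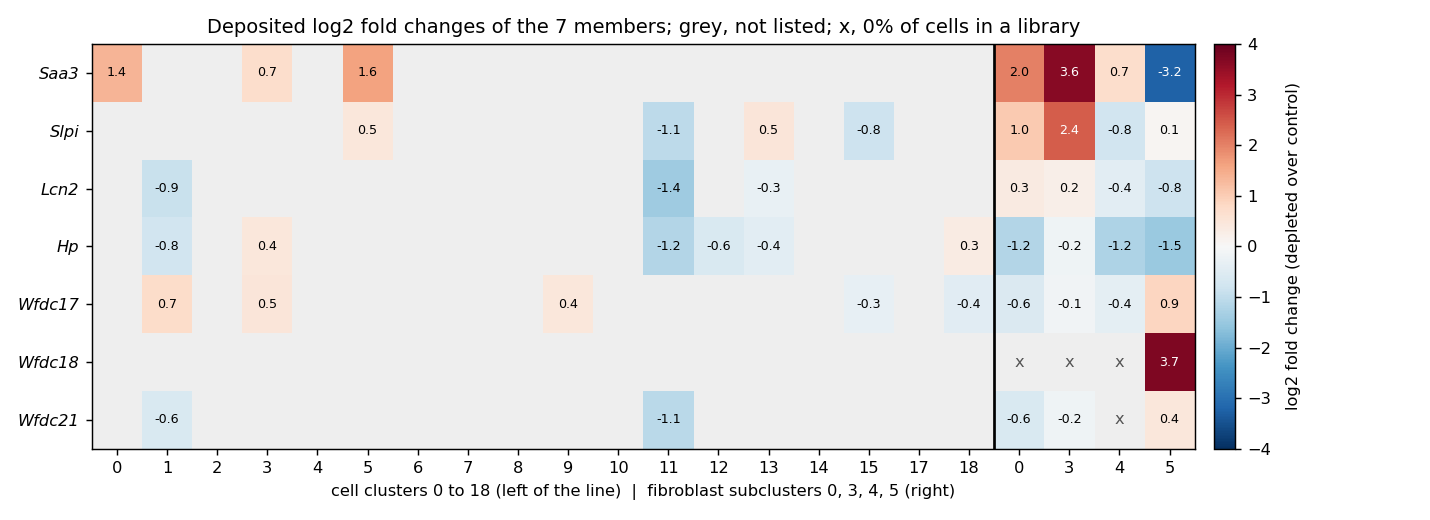
Log2 fold change of the library labelled depleted over control (colour, with the value printed) for each member (rows) in 18 cell clusters and 4 fibroblast subclusters (columns). Grey cells are genes that a cluster table does not list, and x marks a gene with no counted cell in at least 1 library. Saa3 is higher in 6 of its 7 tables and at -3.22 in subcluster 5, and cluster 11 holds 4 members at -1 or below.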

How the data were processed

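Per the study's methods, the authors aligned reads with Cell Ranger 6.1.1 to a GRCm39 reference extended by reporter sequences, aggregated the pair of libraries in Cell Ranger with its normalization switched off, processed them in Seurat with SCTransform, clustered all cells, and normalized and clustered the fibroblasts once more on their own. No doublet caller is named, so doublets were treated by the authors' count limits only. The deposited tables hold the fraction of cells with a corrected count in each library (printed as percent), the authors' average log2 fold change with a pseudocount of 1, and the authors' p-value over cells, used here only as a filter in 1 alternative. These columns of the authors' comparison are described, not tested. From them were computed ranks, percentiles, list medians, floors of the mean, and Euclidean distances (Python 3.11.15, pandas 2.3.3). Scripts were tested on simulated data.

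The members and gene lists were chosen with earlier results of these data known. Named genes were the members, list genes at or past 1 in size in subcluster 3 or 5 counted in at least 25% of cells (at most 4 a direction), marker genes with the highest shares, and the 5 nearest genes of Saa3 and Wfdc18. Other genes named were chosen after their values were seen. Gene positions come from GENCODE on GRCm39, and sequence identities from blastn. Alternatives changed the measure, centring, size limit, p filter and detection limit. Cluster 16 and subclusters 1 and 2 were not analysed here.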

Additional observations from a re-analysis of the deposited data

Results flagged for a closer look

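Members and listed acute phase genes were looked at again where the 2 libraries differed by at least 1 in opposite directions in different populations. For Saa3 the log2 fold changes were 3.63 (subcluster 3) and -3.22 (subcluster 5). For Slpi the extremes were 2.42 in subcluster 3 and -1.06 in cluster 11, which were normalized separately. Subclusters 4 and 5 gave 1.14 and -2.78 for C3 and 1.44 and -1.31 for Cfb. Mt2 had 1.31 (subcluster 0) and -1.13 (subcluster 5). With 1 library per genotype none of these differences was tested.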

How the results depend on the processing

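No paired analysis was possible because each genotype has 1 library. Without replicates, a value was taken to have moved when it differed by more than 1.5 times, a percentile by 5 points or more and a list median by 0.1 or more. With log2 ratios of shares in place of the deposited fold changes, 2 in place of 5 member values were at 1 or above, and the Saa3 difference between subclusters 3 and 5 was 1.495 in place of 6.85 (66.1 as percentage points). With size limits of 0.5 and 2, 8 and 1 member values were lower in place of 4. Of the cluster listings, 4 in place of 10 were higher at a limit of 0.5. At a limit of 1, 2 were higher and 4 in place of 13 lower, and with a deposited adjusted p-value below 0.05, 2 were higher and 3 lower. The acute phase list medians became 0.76 and -0.90 in subclusters 3 and 5 when only genes counted in at least 25% of cells entered. Leaving out clusters 1 and 18, and centring, moved none of these counts by more than 1.5 times, and no member value of at least 1 in size changed direction under the alternatives run. Counting the 4 values with no counted cell in a library, an alternative chosen after seeing the data, gave 6 values at 1 or above. The cause of these shifts was not tested. Cell numbers are not stated in the tables, so no counting error is given, and the smallest share above 0 reached 10% in the library labelled depleted of subcluster 4.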

Other observations

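Markers of further cell types were mostly at low shares in the fibroblast subclusters. The mean share of counted cells over 7 lymphocyte markers was 6%, 6.7%, 6.8% and 7.4% in control cells of subclusters 0, 3, 4 and 5 and 4.9%, 9.9%, 5.7% and 8.9% in the library labelled depleted. Over 6 endothelial and cardiomyocyte markers the means ran from 4.3% to 13.3% of control cells and from 4% to 11.7% in the library labelled depleted. The exceptions were Kdr, an endothelial receptor, in 26.7% to 40% of control cells of subclusters 0, 3 and 4, and the T cell gene Cd3d, which went from 10% to 39.1% of cells (subcluster 3) and from 13% to 42.9% (subcluster 5).

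Ccn2, a target of Yap and Taz, and Saa3 had the same sign in 2 of the 4 subclusters, 0 and 5. Ccn2 was at -0.79 in subcluster 3, where Saa3 was at its highest, and at -1.86 in subcluster 5, where Saa3 was at its lowest. Ccn2 was at 0.27 in subcluster 0 and, with Saa3 at 0.72, at -1.57 in subcluster 4.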
